A study of Homo sapiens with 12 samples.

Results

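The tubulin genes of H1299 cells and TTC5, the factor that controls their mRNA, were followed in input and polysomal RNA after knockdown of EIF3G. The set holds 4 alpha tubulin genes (TUBA1A, TUBA1B, TUBA1C and TUBA4A), 5 beta tubulin genes (TUBB, TUBB2A, TUBB3, TUBB4B and TUBB6) and TTC5, taken by gene symbol. All 10 symbols were among the 16172 genes of the table. TUBA4A had a mean under 1 TPM (the level of a transcript, adjusted for its length, per 1000000 transcripts of the library) and was not tested, so 9 of the 10 genes entered the tests, along with 10596 other genes.

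H1299 is a non-small-cell lung cancer line. EIF3G encodes a subunit of eIF3, the translation initiation factor that helps to place the small ribosomal subunit on mRNA. Transfection was either with a pair of EIF3G siRNAs, mixed in equal amounts (siEIF3G), or with the control siRNA (siCtrl), and cells were lysed 72 h afterwards. A 10% portion of each lysate served as input, and polysomes, the mRNAs that carry several ribosomes, were collected from a sucrose gradient of 10% to 50%. The 4 groups, with 3 libraries each, were siEIF3G polysomal, siCtrl polysomal, siEIF3G input and siCtrl input RNA. All cells were transfected, so no group shows untreated cells. The labels do not say that the replicates were separate cultures, and p-values therefore measure only the spread between these libraries.

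Alpha and beta tubulin pair as a dimer, and the dimers polymerise into microtubules, which form the mitotic spindle and the tracks for transport inside the cell. Cells adjust tubulin mRNA to the amount of free tubulin. When free dimers are in excess, TTC5 binds the first amino acids of tubulin as they leave the ribosome and, through SCAPER, brings the CCR4-NOT deadenylase to the same mRNA, which is then degraded. This control acts on tubulin mRNA only while it is being translated.

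The siRNA sequences define the comparison and are given as the labels list them, 5′ to 3′.
siEIF3G-4: gaacaaactcaagggccagaa
siEIF3G-5: gaggtcatcaacggaaacata
siCtrl: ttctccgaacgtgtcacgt
EIF3G itself had 143, 132 and 69.2 TPM in the siEIF3G polysomal libraries, against 1680, 1916 and 1803 TPM in the siCtrl polysomal libraries. In input RNA it had 60.7, 84.7 and 47.3 TPM in siEIF3G cells and 1158, 1092 and 878 TPM in siCtrl cells. Its log2 fold change was -4.02 in polysomal RNA and -4.03 in input RNA (limma, Benjamini-Hochberg adjusted p = 3.76e-05 and 3.71e-05).

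Every library was scaled by the authors to a total of 1000000, so the number of reads behind a value is unknown, and a change of all mRNAs alike cannot be seen. In such bulk RNA, fewer cells that express a gene and less of its mRNA per cell cannot be told apart. Differences between libraries of the same group lay mostly along a single axis, which held 78.0% of the variance within groups, and 3 libraries lay nearer to the other fraction than the rest of their group: siEIF3G polysomal replicate 3, siEIF3G input replicate 2 and siCtrl input replicate 1. The comparisons of tubulin and CCT genes between groups are also given without these 3 libraries. VIM, a mesenchymal marker, had 265 to 3105 TPM and KRT18, an epithelial keratin, 435 to 1934 TPM over the 12 libraries. The lung epithelial markers SFTPB, NKX2-1, EPCAM and CDH1 summed to 0.04 to 0.66 TPM. The markers of other cells (PECAM1, ALB, COL1A1, GFAP and ACTA2) summed to 2.75 to 9.24 TPM, nearly all of it ACTA2.

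TUBA1B and TUBB supplied most of the tubulin mRNA. TUBA1B, the main alpha tubulin of dividing cells, was the highest of the 10 genes in every library, and TUBB, a widely expressed beta tubulin, was the next in every library. TUBA1B had 2479, 3347 and 1972 TPM in siEIF3G polysomal RNA, 5190, 2117 and 1652 TPM in siCtrl polysomal RNA, 1044, 1432 and 1884 TPM in siEIF3G input and 1158.5, 2045 and 2069 TPM in siCtrl input. TUBB had 1481, 2495 and 1211 TPM in siEIF3G polysomal RNA, 3858, 1390 and 1037 TPM in siCtrl polysomal RNA, 771, 946 and 1307 TPM in siEIF3G input and 806, 1364 and 1411 TPM in siCtrl input. By mean level among the 16172 genes, TUBA1B ranked 62 in siEIF3G polysomal RNA, 56 in siCtrl polysomal RNA, 110 in siEIF3G input and 100 in siCtrl input.

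TUBA1C, TUBB4B and TUBB3 came next. TUBA1C, an alpha tubulin close in sequence to TUBA1B, had 1058, 1354 and 1003 TPM in siEIF3G polysomal RNA, 1895, 944 and 822 TPM in siCtrl polysomal RNA, 317, 483 and 588 TPM in siEIF3G input and 369, 637 and 621 TPM in siCtrl input. TUBB4B, a broadly expressed beta tubulin also found in cilia, had 968, 1346 and 964 TPM in siEIF3G polysomal RNA, 2375, 1251 and 821 TPM in siCtrl polysomal RNA, 347, 517 and 519 TPM in siEIF3G input and 705, 805 and 678 TPM in siCtrl input. The ranges of TUBA1C and TUBB4B overlapped in all 4 groups except siCtrl input, where TUBB4B was the higher.

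TUBB3, the beta tubulin known from neurons and also made by many cancer cells, had 594, 753 and 451 TPM in siEIF3G polysomal RNA, 1038, 739.77 and 587 TPM in siCtrl polysomal RNA, 209, 311 and 236 TPM in siEIF3G input and 378, 392 and 337 TPM in siCtrl input. Of the neuronal markers, RBFOX3 stayed at or under 0.09 TPM, MAP2 had 0.17 to 4.58 TPM and the synaptic vesicle gene SYP had 9.13 to 36.3 TPM, higher on average in polysomal than in input RNA.

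TUBB6, TUBA1A and TUBB2A formed a lower tier. TUBB6 had 142, 197 and 129 TPM in siEIF3G polysomal RNA, 285, 117 and 102 TPM in siCtrl polysomal RNA, 123, 153 and 176 TPM in siEIF3G input and 108, 219 and 241 TPM in siCtrl input. TUBA1A, the alpha tubulin prominent in developing neurons, had 188, 211 and 180 TPM in siEIF3G polysomal RNA, 258, 92.8 and 66.2 TPM in siCtrl polysomal RNA, 61.8, 93.8 and 134 TPM in siEIF3G input and 57.2, 96.2 and 94.4 TPM in siCtrl input. TUBA1A was above TUBB6 in all 3 siEIF3G polysomal libraries and below it in all libraries of the other 3 groups. TUBB2A, a beta tubulin abundant in brain, had 52.2, 71.8 and 39.0 TPM in siEIF3G polysomal RNA, 103, 43.6 and 37.3 TPM in siCtrl polysomal RNA, 24.0, 28.2 and 37.6 TPM in siEIF3G input and 22.6, 44.3 and 44.5 TPM in siCtrl input.

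TTC5 mRNA was far below every tubulin of the set except TUBA4A. It had 9.64, 8.78 and 9.47 TPM in siEIF3G polysomal RNA, 9.61, 8.60 and 7.42 TPM in siCtrl polysomal RNA, 4.97, 4.42 and 7.59 TPM in siEIF3G input and 3.40, 5.19 and 6.48 TPM in siCtrl input. The tubulin members together held 583 to 1561 TPM for each TPM of TTC5. TUBA4A, an alpha tubulin that unlike the others is known mainly from platelets, muscle and brain, was the lowest, at 0.04 to 0.53 TPM over the 12 libraries.

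**Figure D1:**
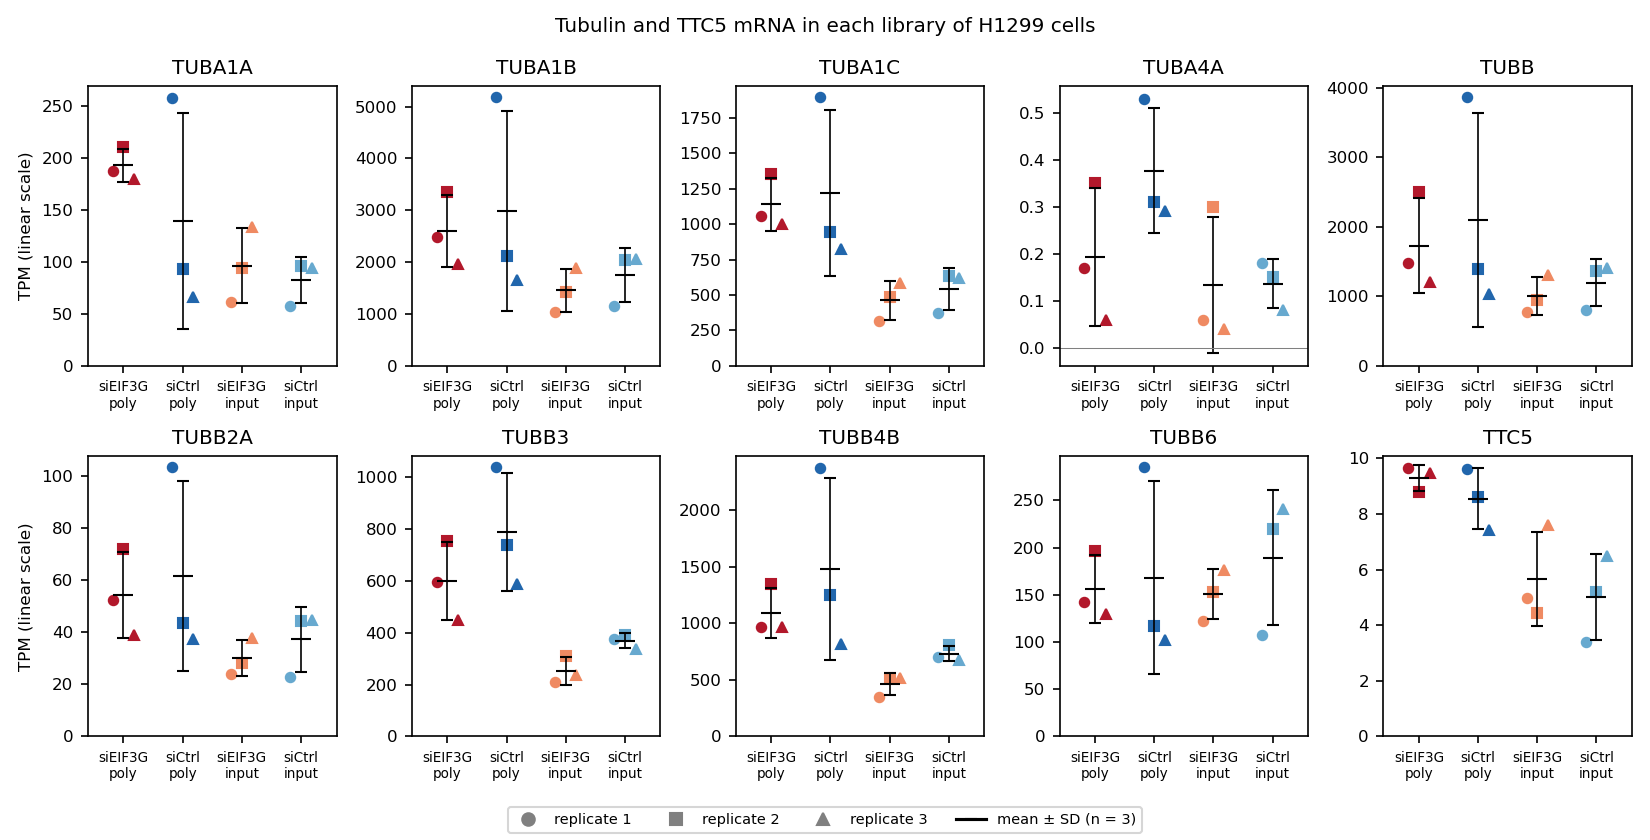
TPM of the 9 tubulin genes and TTC5 (linear axes that differ by gene) in siEIF3G polysomal, siCtrl polysomal, siEIF3G input and siCtrl input RNA. Each symbol is a library, with circles for replicate 1, squares for replicate 2 and triangles for replicate 3, and bars show the mean ± SD (n = 3). The siCtrl polysomal replicate 1 circle lies above all other libraries for every tubulin, TUBA1B at 5190 TPM among them.

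Summed over the 9 tubulin genes, the level was 6963, 9774 and 5948 TPM in siEIF3G polysomal RNA and 15004, 6696 and 5125 TPM in siCtrl polysomal RNA. In input RNA the sum was 2897, 3964 and 4881 TPM in siEIF3G cells and 3604.5, 5602 and 5496 TPM in siCtrl cells. The means were 7562 ± 1982, 8942 ± 5308, 3914 ± 993 and 4901 ± 1124 TPM in these 4 groups (SD, n = 3 each). Tubulin mRNA thus took 0.513% to 1.50% of a polysomal library and 0.290% to 0.560% of an input library. One library, siCtrl polysomal replicate 1, held 2.24 times the sum of the next siCtrl polysomal library, and the polysomal and input ranges overlapped between siCtrl polysomal replicate 3 and the 2 higher siCtrl input libraries.

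The first question was whether tubulin mRNA was enriched or depleted on polysomes relative to the lysate it came from. In siCtrl cells, TUBA1C, TUBB3 and TUBB4B rose in polysomal relative to input RNA, by 1.11 ± 0.34, 1.06 ± 0.26 and 0.89 ± 0.33 on the log2(TPM + 1) scale (± SE; limma, Benjamini-Hochberg adjusted p = 0.0384, 0.0252 and 0.0492). Each was higher in all 3 polysomal libraries than in any siCtrl input library. Quantile normalization ended the calls of TUBA1C (0.92, adjusted p = 0.0701 in limma) and TUBB4B (0.72, adjusted p = 0.117). With the replicate number added to the model these 2 genes were not called either (limma, adjusted p = 0.0516 and 0.0607). The other tubulin values were 0.53 ± 0.44 for TUBA1A, 0.63 ± 0.40 for TUBA1B, 0.61 ± 0.44 for TUBB and 0.62 ± 0.41 for TUBB2A, none past the threshold of 0.05. TUBB6 had the only negative tubulin value, -0.25 ± 0.40 (adjusted p = 0.603 in limma), a value that was 0.85 after rescaling by size factors.

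In these siCtrl libraries 7.98% of the 10605 tested genes were called higher and 28.9% lower in polysomal RNA, and 16.9% were higher and 28.9% lower without overlap of the groups. The 3 of 8 tested tubulins called higher stand against the 7.98%. The median log2 fold change of the 8 tubulins was 0.63, against -0.96 for all tested genes. This median of all genes depends on the scaling and was -0.10 with size factors, where 2703 genes were called higher and 1958 lower, in place of 846 higher and 3066 lower as deposited. With quantile normalization the median of all genes was -0.086, with 1657 genes called higher and 1243 lower. Relative to the median of all genes, the tubulin median was 1.59 on the deposited scale, 1.82 by size factors and 0.71 by quantile normalization. Cytosolic ribosomal protein mRNAs, which share the same total, took 27.5%, 25.7% and 27.6% of the siEIF3G polysomal libraries and 23.0%, 26.8% and 28.3% of the siCtrl polysomal libraries, against 39.3%, 37.0% and 33.8% of the siEIF3G input and 36.4%, 30.2% and 28.5% of the siCtrl input libraries. With these genes left out of the total, TUBB3 and TUBA1C were called higher in siCtrl polysomal RNA (0.94 and 0.99), and TUBB4B was not (0.77, adjusted p = 0.0519 in limma). Over all tested genes 769 were called higher and 4891 lower in that setting.

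In siEIF3G cells the 4 highest tubulin values were TUBA1C at 1.33 ± 0.34, TUBB4B at 1.25 ± 0.33, TUBB3 at 1.23 ± 0.26 and TUBA1A at 1.06 ± 0.44 (log2 fold change of polysomal against input ± SE). TUBB3 was the only one of the 9 tested members to pass (limma, adjusted p = 0.0254), and TUBA1C and TUBB4B had adjusted p = 0.0521 and 0.0589. TUBA1B had 0.85 ± 0.40, TUBB2A 0.82 ± 0.41, TUBB 0.74 ± 0.44 and TUBB6 0.04 ± 0.40. Of the tested genes, 1.81% were called higher and 1.33% lower, and 9.4% were higher and 12.7% lower without overlap. TUBA1A, TUBA1B, TUBA1C, TUBB2A, TUBB3 and TUBB4B, 6 of 8 tubulins, were higher in polysomal RNA without overlap. The tubulin median was 0.95, against -0.49 for all genes, and 1.44 relative to it. With size factors the calls over all genes split into 19 higher and 31 lower, in place of 192 higher and 141 lower, and TUBB3 was at 1.79 (adjusted p = 0.0988 in limma). With quantile normalization 144 were higher and 235 lower, and the tubulin median relative to all genes was 0.97.

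Without the 3 libraries that lay nearer to the other fraction, TUBB3, TUBA1C and TUBB4B were called higher on polysomes in both siEIF3G cells (1.59, 1.47 and 1.42) and siCtrl cells (1.08, 0.85 and 0.87). In siEIF3G cells TUBA1B (1.04) and TUBB2A (1.00) then passed as well (limma, adjusted p = 0.0479 and 0.0439). Calls became far more common over all genes in that setting, with 1744 of 10760 genes higher and 5924 lower in siEIF3G cells and 1418 higher and 6682 lower in siCtrl cells. The libraries were left out for lying nearer to the other fraction, so the choice itself widens differences between fractions. Every group except siCtrl polysomal then lacks 1 library. Single libraries mattered to the calls. In siCtrl cells TUBB3 lost its call when siCtrl input replicate 2 or 3 or siCtrl polysomal replicate 1 or 2 was left out, with adjusted p = 0.0849, 0.105, 0.0823 and 0.0689 from limma. TUBA1C lost it without any 1 of 7 libraries and TUBB4B without any 1 of 11, and both were lowest without siCtrl polysomal replicate 1 (0.74 and 0.48). In siEIF3G cells the TUBB3 call was lost without siEIF3G input replicate 1 or 3, siEIF3G polysomal replicate 1 or 2, or siCtrl polysomal replicate 2, with adjusted p = 0.137, 0.0755, 0.128, 0.148 and 0.0537.

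The next question was whether knockdown of EIF3G changed tubulin mRNA. None of the 9 tested members passed the test in either fraction. In input RNA 0.0189% of the tested genes were called, which is 2 genes with EIF3G among them, and 144 had an unadjusted p under 0.05. All 8 tubulins except TUBA1A had negative log2 fold changes of siEIF3G against siCtrl input: TUBB4B had -0.68 ± 0.33, TUBB3 -0.56 ± 0.26, TUBA1B -0.27 ± 0.40, TUBB2A -0.26 ± 0.41, TUBB6 -0.26 ± 0.40, TUBB -0.23 ± 0.44 and TUBA1C -0.23 ± 0.34. TUBA1A was at 0.19 ± 0.44, and at -0.065 without the 3 libraries. Every member had adjusted p = 0.99999 in limma. The tubulin median was -0.26, against -0.05 for all genes, and without the 3 libraries it was -0.55, against -0.20.

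TUBB3 and TUBB4B were the 2 members whose groups did not overlap in input RNA. TUBB3 averaged 252 ± 53.0 TPM in siEIF3G input and 369 ± 28.6 TPM in siCtrl input, and TUBB4B 461 ± 98.5 and 729 ± 66.9 TPM (SD, n = 3 each). Over all tested genes 1.88% were higher and 1.8% lower without overlap. Their unadjusted p were 0.0509 for TUBB3 and 0.058 for TUBB4B, and without the 3 libraries the log2 fold changes were -0.71 and -0.80 (limma, adjusted p = 0.580 and 0.624).

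In polysomal RNA 0.0189% of the tested genes, again 2, were called between siEIF3G and siCtrl, with 709 at an unadjusted p under 0.05. TUBA1A had the largest tubulin value, 0.71 ± 0.44, TUBB3 had -0.39 ± 0.26 and TUBB4B -0.32 ± 0.33 (limma, adjusted p = 0.65, 0.656 and 0.68). The remaining 5 tubulins lay between -0.10 and 0.03. The groups overlapped for every member, whereas 21.6% of all tested genes were higher and 7.61% lower in siEIF3G polysomal RNA without overlap. The median of all genes was 0.33 and that of the tubulins -0.059, with 2 of 8 positive. This gap of -0.39 depended on the setting, at -0.57 with size factors, -0.025 with quantile normalization and -0.076 without the 3 libraries, where 6 of 8 tubulins were positive with a median of 0.12.

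The difference between the 2 effects of knockdown, polysomal minus input, was called for 0% of the tested genes, and 19 genes had an unadjusted p under 0.05. It was positive for 8 of 8 tubulins, between 0.13 for TUBB and 0.52 for TUBA1A, with a median of 0.22 against 0.38 for all genes. With size factors 0 of 8 were positive and the median was -0.33, with TUBB at -0.42 and TUBA1A at -0.018. Without the 3 libraries 8 of 8 were positive with a median of 0.65, against 0.42 for all genes, and with quantile normalization 8 of 8 with a median of 0.19, against -0.0068. The sign of the tubulin values and their place relative to all genes thus turned with the setting.

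**Figure D2:**
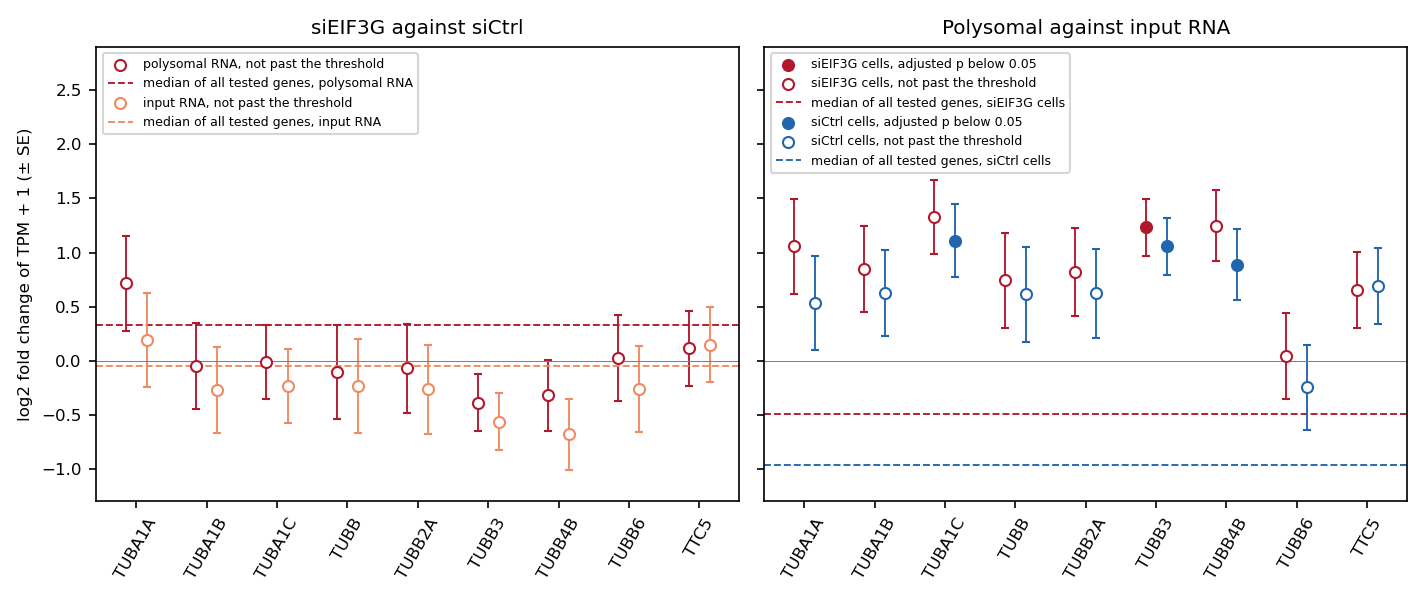
Log2 fold change of TPM + 1 (± SE, limma) of the 8 tested tubulins and TTC5, for siEIF3G against siCtrl (left; polysomal and input RNA) and for polysomal against input RNA (right; siEIF3G and siCtrl cells). Filled points have an adjusted p below 0.05, and dashed lines mark the median of all tested genes. On the right the tubulins lie above the dashed lines at -0.49 and -0.96, and TUBB6 lies lowest among them.

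For siEIF3G against siCtrl, TTC5 had a log2 fold change of 0.12 ± 0.35 in polysomal RNA and 0.15 ± 0.35 in input RNA, and its difference in polysome loading was -0.03. In polysomal RNA its sign turned with the scaling, to -0.39 with size factors and -0.30 with quantile normalization. TTC5 averaged 9.30 ± 0.46 TPM in siEIF3G polysomal RNA and 8.54 ± 1.10 TPM in siCtrl polysomal RNA, against 5.66 ± 1.69 TPM in siEIF3G input and 5.02 ± 1.55 TPM in siCtrl input (SD, n = 3 each). Polysomal libraries were above input libraries without overlap in both kinds of cell. So were 9.4% of all tested genes in siEIF3G cells and 16.9% in siCtrl cells. The log2 fold change of polysomal against input RNA was 0.66 ± 0.35 in siEIF3G cells and 0.69 ± 0.35 in siCtrl cells (adjusted p = 0.105 in siCtrl cells in limma). Neither passed as deposited. With quantile normalization both passed, at 1.21 in siEIF3G cells and 1.71 in siCtrl cells (limma, adjusted p = 0.0453 and 0.00646). Over all 10605 tested genes 379 and 2900 were called in that setting. Both also passed with the first axis as a covariate (limma, adjusted p = 0.00623 in siEIF3G and 0.00279 in siCtrl cells). That axis came from these same libraries, and 6496 and 7878 genes were called with it, so a pass was common. With size factors TTC5 passed in siCtrl cells (1.65, adjusted p = 0.00647 in limma), where 4661 genes were called.

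The tubulin isotypes also differed in proportion to each other, a measure that scaling a library by a single factor leaves as it is. The share of each gene in the summed alpha or beta tubulin TPM of its library, and ratios of such sums, were compared in 40 tests by exact permutation of 3 against 3 libraries, in which the smallest possible two-sided p is 0.1. The values that reach it have a Benjamini-Hochberg adjusted p = 0.364, so none passes a threshold of 0.05. TUBA1A made up 5.04%, 4.29% and 5.70% of alpha tubulin mRNA in siEIF3G polysomal RNA, against 3.51%, 2.94% and 2.61% in siCtrl polysomal RNA. In input RNA its share was 4.34%, 4.67% and 5.14% in siEIF3G cells, against 3.61%, 3.46% and 3.39% in siCtrl cells. The 6 siEIF3G libraries lay above the 6 siCtrl libraries, with the nearest pair at 4.29% and 3.61% (exact permutation p = 0.1 in each fraction). TUBA1A, TUBA1B and TUBA1C are near copies on chromosome 12 with shared coding sequence, so how reads are divided among them in the estimated TPM is uncertain. The same holds for TUBB2A and its close copy TUBB2B.

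Between fractions, TUBA1C took 25.8% to 32.3% of alpha tubulin in the 6 polysomal libraries and 22.3% to 24.0% in the 6 input libraries. TUBA1B took 62.5% to 70.7% of it in polysomal RNA and 71.3% to 74.3% in input RNA. TUBB6 took 3.31% to 4.63% of beta tubulin in polysomal RNA and 5.34% to 8.90% in input RNA. None of these ranges overlapped, within siEIF3G cells or within siCtrl cells (exact permutation p = 0.1 for each). TUBB6 on chromosome 18 overlaps AFG3L2, which averaged 14.5 TPM in siEIF3G polysomal, 6.14 TPM in siCtrl polysomal, 24.2 TPM in siEIF3G input and 23.8 TPM in siCtrl input RNA. Whether strand was used in counting is not given in the sources used here, and the part of AFG3L2 in the TUBB6 values was not tested. TUBB4B overlaps CIMIP2A in the same way, and CIMIP2A was not analysed here.

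TUBB6 was also higher in siEIF3G than in siCtrl polysomal RNA as a share of beta tubulin, with 4.39%, 4.05% and 4.63% against 3.73%, 3.31% and 3.94% (exact permutation p = 0.1). TUBB4B took 29.9%, 27.7% and 34.5% of beta tubulin in siEIF3G polysomal RNA and 23.6%, 26.4% and 22.8% in siEIF3G input RNA, without overlap, while its siCtrl fractions overlapped (exact permutation p = 0.1 and 0.4). The ratio of summed alpha to summed beta tubulin was 1.15, 1.01 and 1.13 in siEIF3G polysomal RNA, against 0.959, 0.891 and 0.983 in siCtrl polysomal RNA. In input RNA it was 0.965, 1.03 and 1.14 in siEIF3G cells and 0.785, 0.983 and 1.03 in siCtrl cells, with overlap. The exact permutation p was 0.1 in polysomal RNA, where the groups did not overlap, and 0.5 in input RNA.

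**Figure D3:**
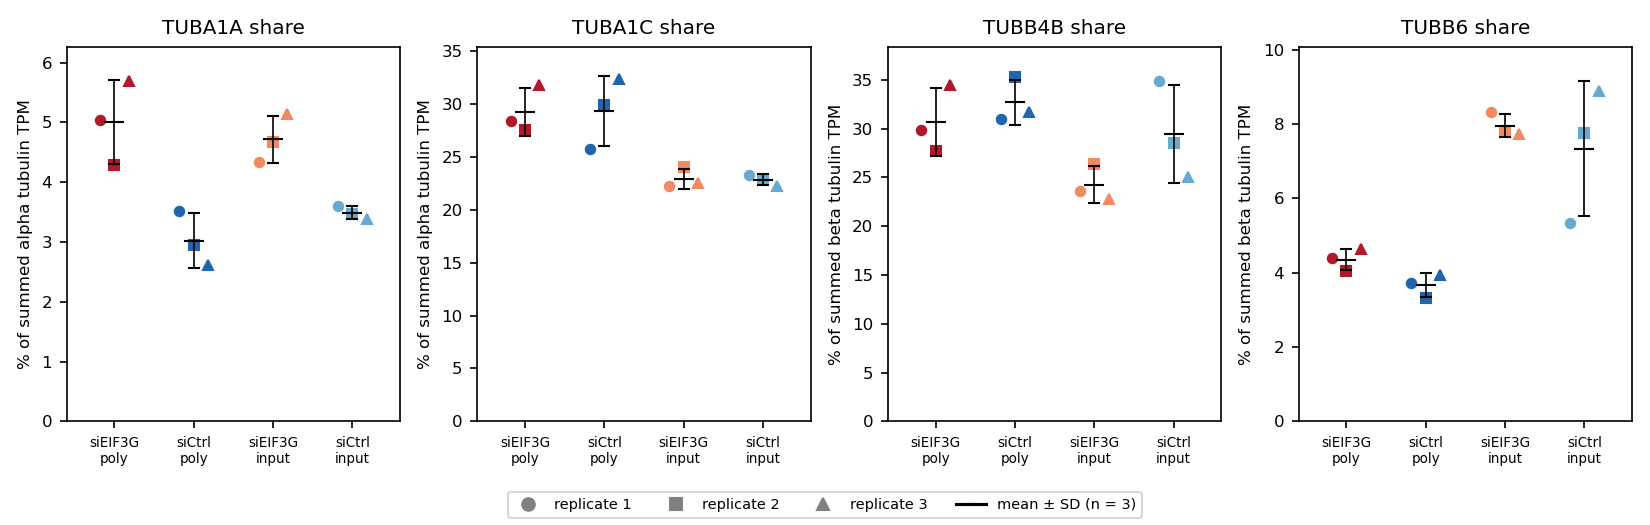
Share of TUBA1A and TUBA1C in summed alpha tubulin TPM, and of TUBB4B and TUBB6 in summed beta tubulin TPM (percent, linear axes that differ by gene), by library in the 4 groups. Symbols are replicates and bars the mean ± SD (n = 3). For TUBA1A the siEIF3G libraries, at 4.29% to 5.70%, lie above the siCtrl libraries, at 2.61% to 3.61%, and for TUBB6 the polysomal libraries, at 3.31% to 4.63%, lie below the input libraries, at 5.34% to 8.90%.

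Other alpha and beta tubulin genes added little. Of 9 further genes, 8 were in the table, and these summed to 21.9 to 82.9 TPM per library. TUBB2B and TUBB4A were the 2 that could be tested, and neither passed. For siEIF3G against siCtrl TUBB2B had -0.49 in polysomal and -0.15 in input RNA, and TUBB4A, a beta tubulin of oligodendrocytes, -0.77 and -0.55.

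All 12 genes listed for the machinery through which TTC5 acts were tested. SCAPER, the adaptor between TTC5 and the deadenylase, had a log2 fold change of siEIF3G against siCtrl of 0.37 in polysomal and -0.19 in input RNA. CNOT11, the subunit that contacts SCAPER, had 1.05 and 0.45, and CNOT1, the scaffold of CCR4-NOT, 0.92 and -0.23. None of the 12 genes of this list passed in either fraction. In polysomal RNA 11 of 12 had positive values with a median of 0.42, close to the 0.33 of all genes, from CNOT10 at 1.22 to CNOT6, a catalytic deadenylase subunit, at -0.16. In input RNA the values ran from 0.45 for CNOT11 to -1.01 for CNOT6.

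Relative to input RNA, 4 of 12 of these genes fell in siCtrl cells, CNOT1 (-2.30) and CNOT11 (-1.43) among them (limma, adjusted p = 0.0465 for CNOT11), against 28.9% of all tested genes, and the median was -1.39, against -0.96 for all genes. The range was 0.41 for TNKS1BP1, a protein found with CCR4-NOT, to -2.46 for CNOT7, a catalytic deadenylase subunit. In siEIF3G cells none of the 12 passed (median -0.78, against -0.49 for all genes). Without the 3 libraries 10 of 12 were called in siEIF3G cells and 10 of 12 in siCtrl cells, where 7668 and 8100 of all 10760 genes were called.

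Newly made tubulin is folded by the chaperonin CCT, which receives it from prefoldin, and assembled by the tubulin cofactors. The CCT genes tended to have higher values in siEIF3G than in siCtrl polysomal RNA, positive for 8 of 8, with a median log2 fold change of 1.58 against 0.33 for all genes, and 6 of 8 without overlap, against 21.6% of all genes. None passed the test, and 7 of 8 had an unadjusted p under 0.05 in limma, as had 709 of all 10605 tested genes. The 8 genes were read in the same libraries and are not separate replicates. CCT2 had 141, 222 and 305 TPM in siEIF3G polysomal RNA, against 101, 68.7 and 26.2 TPM in siCtrl polysomal RNA, a log2 fold change of 1.88, the most positive of the 8. TCP1, the founding subunit, had the least, 1.16. In input RNA the median was 0.18, from 0.37 for CCT3 to 0.00 for CCT6A.

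Summed CCT mRNA was 2072, 2863 and 3373 TPM in siEIF3G polysomal RNA, against 2362, 911 and 480 TPM in siCtrl polysomal RNA. In input RNA it was 2220, 1252 and 3316 TPM in siEIF3G cells and 871, 2255 and 3046 TPM in siCtrl cells, lowest in the siEIF3G input replicate 2 and siCtrl input replicate 1 libraries that lay nearer to the other fraction. Without those 2 and siEIF3G polysomal replicate 3 the polysomal median was 1.31, against 0.20 for all genes, with 8 of 8 positive and none called. Between fractions CCT8 and TCP1, 2 of 8 CCT genes, were called lower in siCtrl polysomal than in siCtrl input RNA. Over all tested genes 28.9% were called lower. The groups overlapped for both genes. CCT8 had a log2 fold change of -1.75, and CCT7 had 0.34. The CCT median for polysomal against input RNA was 0.09 in siEIF3G cells and -1.51 in siCtrl cells, while the tubulin median was 0.95 in siEIF3G cells and 0.63 in siCtrl cells. The CCT medians moved with the setting, to -0.73 in siEIF3G cells and -2.19 in siCtrl cells without the 3 libraries, 0.64 and -0.43 with size factors, and -0.21 and -1.57 with quantile normalization. Their difference between siEIF3G and siCtrl cells was not called for any of the 8 genes in these settings.

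The other lists showed no call with knockdown in either fraction. Of the prefoldin genes, PFDN4 and VBP1 bounded the polysomal values of siEIF3G against siCtrl, at -1.11 and 0.46, and PFDN4 and PFDN5 the input values, at -0.37 and 0.36. Of the cofactors, ARL2, a small GTPase, and TBCE bounded the polysomal values, at -0.56 and 0.95, and ARL2 and TBCC the input values, at -0.40 and 0.32. In siCtrl polysomal relative to siCtrl input RNA, where 7.98% of all tested genes were called higher and 28.9% lower, 2 of 6 prefoldin genes rose (PFDN5, 0.78, among them) and 3 fell (PFDN1, -2.54), and 2 of 6 cofactors rose (TBCB, 1.21) and 1 fell (TBCA, -1.66).

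Counts of enzymes that modify tubulin and of proteins that bind microtubules stand against the same 7.98% and 28.9%. Of 18 modifying enzymes 13 were tested, and in siCtrl cells 1, TTLL12 (1.19), rose and 2 fell in polysomal relative to input RNA, the tyrosine ligase gene TTL (-1.92) among them. With knockdown they ranged from -0.56 for SIRT2, a deacetylase, to 0.78 for TTLL4, a glutamylase, in polysomal RNA, and from -0.32 for AGBL5, a deglutamylase, to 0.32 for TTLL4 in input RNA. Of 20 microtubule-binding genes 17 were tested, and 2 rose and 9 fell on siCtrl polysomes relative to input, with the most negative value, -2.99, for CKAP5, a microtubule polymerase. With knockdown they had a polysomal median of 0.46, from -0.73 for STMN3 to 1.39 for KATNA1, a microtubule-severing enzyme. In input RNA the most negative value was -0.69, for KIF2A, a microtubule depolymerase.

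**Figure D4:**
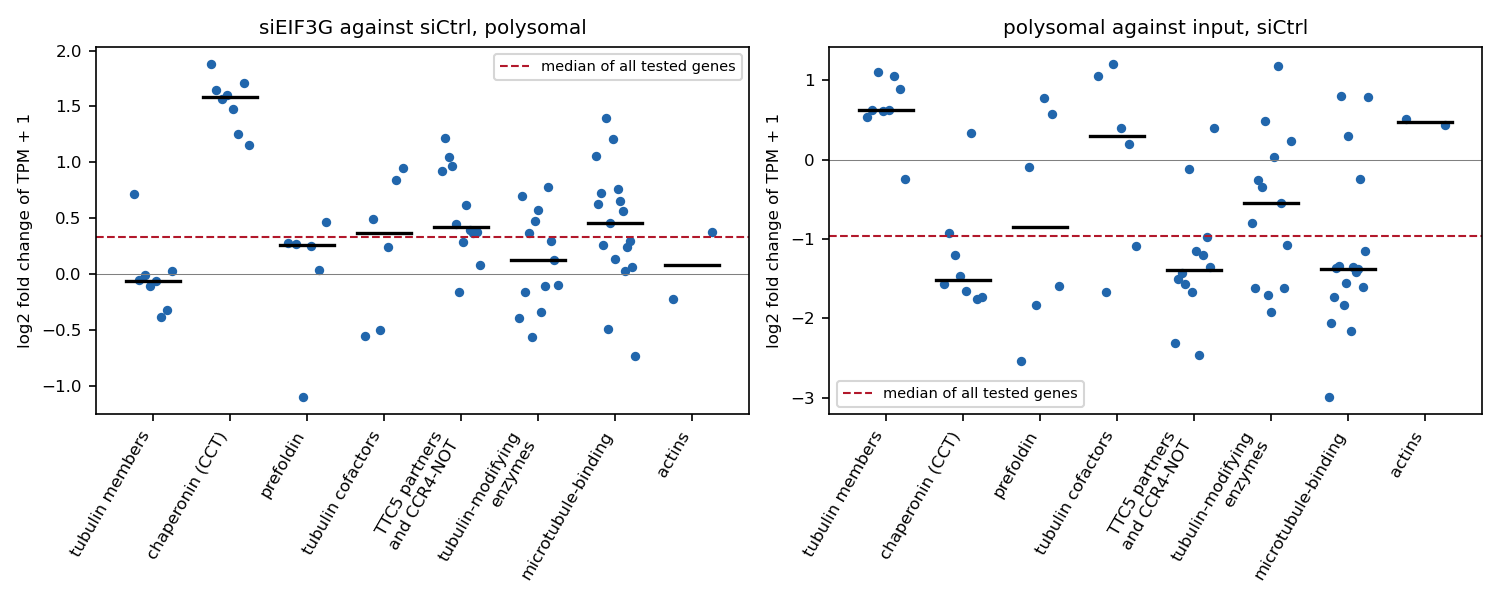
Log2 fold change of TPM + 1 (limma) of each tested gene of 8 lists for siEIF3G against siCtrl polysomal RNA (left) and siCtrl polysomal against siCtrl input RNA (right). Each point is a gene, black bars are list medians, and the dashed line is the median of all tested genes (0.33 and -0.96). The CCT points lie above the dashed line on the left, with a median of 1.58, and the tubulin points lie above it on the right, with a median of 0.63.

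Most tubulin mRNAs varied together across libraries, while TUBB6 had lower correlations with TUBB3 (r = 0.19), TUBB4B (0.38) and TUBA1C (0.42). Over the 12 libraries, which share fractions and scaling, the Pearson correlation of log2(TPM + 1) between pairs of the 8 tested tubulins was 0.19 to 0.99 with a median of 0.84 (28 pairs), and that of a tubulin with TTC5 was 0.24 to 0.86 with a median of 0.71 (8 pairs). The genes most like the mean of the tubulins were CCAR2 (r = 0.977), ACTR1A (0.967), HMGXB3 (0.963), PLK1 (0.959) and PSMD3 (0.953). Those most like TTC5 were PSMB7 (r = 0.982), COPS6 (0.981), SEC13 (0.973), POLR1C (0.972) and BUD23 (0.972). Only genes averaging 5 TPM or more were considered for these lists of most similar genes, and the correlations describe the 12 libraries. Pairs of other genes were not correlated as a background.

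Promoter sequences are shown for TUBB4B and TUBB3, which were lower without overlap in siEIF3G than in siCtrl input RNA, and for TUBA1A, whose share was higher, a choice made after the values were seen. Each is the 100 bases before an annotated start in RefSeq (GRCh38.p14), 5′ to 3′ on the strand of the gene, with matches on either strand in capitals. The motifs searched were the TATA box core (TATAA), the CCAAT box (spelled as its name) and the GC box (GGGCGG).
TUBB4B, chr9:137241187-137241286, plus strand: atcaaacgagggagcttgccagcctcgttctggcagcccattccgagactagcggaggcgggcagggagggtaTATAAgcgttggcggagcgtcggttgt
TUBB3, chr16:89923242-89923341, plus strand: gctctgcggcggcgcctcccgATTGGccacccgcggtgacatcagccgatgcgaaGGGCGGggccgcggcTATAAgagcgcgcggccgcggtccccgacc
TUBB3, another start, chr16:89921825-89921924, plus strand: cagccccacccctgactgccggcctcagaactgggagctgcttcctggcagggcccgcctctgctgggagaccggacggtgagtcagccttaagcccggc
TUBA1A, chr12:49189081-49189180, minus strand: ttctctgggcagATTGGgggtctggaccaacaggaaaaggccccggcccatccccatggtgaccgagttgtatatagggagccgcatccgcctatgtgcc
The matches shown do not overlap each other. In 250 bases before a start, the TATA letters were found for 6 of the 15 starts of the 10 genes, the CCAAT box for 8 and the GC box for 8, against 18.9%, 32% and 42.6% of all 35116 RefSeq starts. Which start these cells use was not measured, and a match is a description of the letters only.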

How the data were processed

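RNA from input and polysomal fractions of H1299 cells was sequenced in 12 libraries. The deposited values are TPM, computed by the authors with RSEM 1.3.1 on GRCh38.p13, per the submitters' processing notes; no source used here names the aligner, the annotation, any filter or the read depth. TPM were used as deposited, as log2(TPM + 1), which understates the fold change of low genes. The 10605 of 16172 genes that averaged 1 TPM or more entered a limma model (limma 3.58.1, R 4.3.3) of 4 group means, with the mean-variance trend and 8 residual degrees of freedom. P-values were two-sided and adjusted by Benjamini-Hochberg over all tested genes of each of 5 comparisons, with a threshold of 0.05. The fit was also run on simulated data with independent noise per gene and changes larger than the knockdown values of the tubulins. Those data lack the axis that the real libraries share, so they give no error rate or power for the tests here. Shares and ratios within a library were compared by exact permutation (scipy 1.17.1).

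Members and lists were chosen with earlier results of these data known. From each list the named genes are the most positive and the most negative per comparison, with EIF3G, SCAPER, CNOT11 and CNOT1 always given; CNOT7, CNOT10, TCP1, CCT7, PFDN5, TBCB and others follow that rule, and the 5 genes most like the tubulins or TTC5 were taken by correlation. One further item is not reported here. Replicate numbers of different groups were not treated as pairs. Alternatives were other pseudocounts (0.1 and 5), other filters (none, and a mean of 5 TPM), size factors, quantile normalization, a total without ribosomal protein genes, no trend, robust moderation, only the groups compared, a replicate block, the first axis as a covariate, and libraries left out. Quantile normalization and leave-one-out of the shares were chosen after seeing the data. Promoters were read from a RefSeq table.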

Additional observations from a re-analysis of the deposited data

How the results depend on the processing

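No member was called between siEIF3G and siCtrl, in either fraction or in loading, under any alternative run. Calls over all genes did depend on the run. With the first axis as a covariate 3855 of 10605 tested genes were called in polysomal RNA, 28 in input RNA and 1912 in loading. The counts of members called between fractions moved. For siCtrl polysomal against input RNA the count was 3 as reported, 8 with size factors, and 1 with no filter, with only the groups compared or with the replicate block, and 0 to 3 when 1 library was left out. For siEIF3G cells it was 1 as reported, 3 with a minimum of 5 TPM, 2 with quantile normalization, 0 with size factors, with no trend or with only the groups compared, 5 without the 3 libraries nearer to the other fraction, 5 with the first axis as a covariate, and 0 to 3 when 1 library was left out. Over all 10605 tested genes the calls in siCtrl cells were 3912 as reported and 4661 with size factors. They were 1249 of 16161 with no filter, 610 with only the groups compared and 2121 with the replicate block. Over all genes the calls in siEIF3G cells were 333 as reported, 7668 without the 3 libraries and 6496 with the covariate. They were 425 of 7261 with a minimum of 5 TPM, 379 with quantile normalization and 50 with size factors. With no trend they were 149, and with only the groups compared 68. With 1 library left out they ran from 130 to 7239 in siCtrl and from 44 to 784 in siEIF3G cells. Same-numbered input and polysomal libraries may share a lysate, and the main fit did not use such a pairing. Correlations of same-numbered deviations, pooled over all pairs of groups, ran from -0.65 to 0.60 for number 1 and -0.69 to 0.63 for number 2. For number 3 they ran from -0.53 to 0.71. These ranges mix siEIF3G with siCtrl libraries, so they cannot settle whether the numbers pair. The replicate block changed the calls of TUBA1C and TUBB4B in siCtrl cells (adjusted p = 0.0516 and 0.0607 in limma) and no other call of a member.

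Without ribosomal protein genes in the total, the summed tubulin level was 10329 TPM in siEIF3G and 11924 TPM in siCtrl polysomal RNA. In input RNA it was 6148 TPM in siEIF3G and 7128 TPM in siCtrl cells. With size factors it was 3752 in siCtrl input.

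Signs turned for values that did not pass the test. Knockdown in input RNA gave -0.065 for TUBA1A without the 3 libraries, and leaving out 1 library gave -0.077 to 0.47 for TUBA1A, -0.49 to 0.016 for TUBA1C and -0.060 to 0.32 for TTC5. In polysomal RNA knockdown gave -0.39 for TTC5 with size factors and -0.30 with quantile normalization, and -0.68 to 0.091 for TUBB4B when 1 library was left out. The loading value was -0.018 for TUBA1A and -0.42 for TUBB with size factors, where none of the 8 tubulins was positive, 0.029 for TTC5 without the 3 libraries, and with 1 library left out -0.26 to 0.69 for TUBB and -0.21 to 0.18 for TTC5. For polysomal against input RNA, TUBB6 was 0.85 in siCtrl cells with size factors, and -0.16 in siEIF3G cells both with quantile normalization and with the total without ribosomal protein genes. With 1 library left out, TUBB6 was -0.13 to 0.17 in siEIF3G cells and -0.70 to 0.034 in siCtrl cells, and TUBA1A -0.036 to 0.94 in siCtrl cells. The cause was not tested for these.

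With 3 libraries a group, unknown depth and a wide spread in siCtrl polysomal RNA, differences of the size seen with knockdown could not be told from the spread between libraries.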

Other observations

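TUBG1, the gamma tubulin of microtubule-nucleating complexes, had a log2 fold change of 0.85 in siCtrl polysomal against siCtrl input RNA, and TUBE1, a centriole tubulin, had -1.27. For siEIF3G against siCtrl, TUBE1 and TUBG1 had 0.94 and -0.31 in polysomal RNA, and TUBE1 and TUBD1 had 0.45 and -0.42 in input RNA. None of the 4 tested genes of this list passed in limma in these comparisons.

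ACTB and ACTG1, the main non-muscle actins, whose protein is folded by the same chaperonin as tubulin, summed to 3133 to 10727 TPM per library. For siCtrl polysomal against siCtrl input RNA they had 0.51 and 0.43. For siEIF3G against siCtrl they had -0.22 and 0.38 in polysomal RNA and -0.07 and 0.37 in input RNA, and neither passed in limma.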
